A study of Mus musculus with 12 samples.

Results

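Mitochondrial ribosomal protein genes were taken as all probe sets that the platform's annotation pairs with exactly 1 gene whose symbol begins with Mrpl or Mrps and a digit. The rule gave 156 probe sets of 76 genes, out of 34945 single-gene probe sets of 18193 genes on the array. Each of the 76 genes had at least 1 probe set bright enough to be tested (136 of the 156 probe sets, against 27808 of 45037 on the whole array). Where a gene had several, the tested one with the highest mean signal stood for the gene in the counts, and the others are described separately.

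The mitochondrial ribosome makes the few proteins that mitochondrial DNA encodes, all of them membrane subunits of the respiratory chain and of ATP synthase. Its proteins are encoded in the nucleus, made in the cytosol and imported, and they assemble with mitochondrial rRNA into a small subunit, which decodes the mRNA, and a large subunit, which joins the amino acids. Many have a bacterial counterpart, and others occur in mitochondria only. In the early mouse embryo, mitochondria are inherited from the egg and mature in form and respiratory activity up to the blastocyst stage.

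Signal was measured on 12 Affymetrix arrays of mouse blastocysts, embryos made of inner cells and an outer trophectoderm. Per the labels, 4 arrays carried RNA from blastocysts cultured in Ca-free medium, 4 from blastocysts treated by 20 pulses and 4 from control blastocysts described as normal. The study's title concerns the pattern of Ca2+ oscillations in fertilised eggs, so the comparisons address whether an altered Ca2+ signal is followed by different expression in the blastocyst. The sources used here do not give the strain, what a pulse was, how long the culture in Ca-free medium lasted or how many embryos went onto an array.

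Values are MAS5 signals on a linear intensity scale, rescaled here so that the 2% trimmed mean of each array is 500, and changes are differences of log2(signal + 32) between group means with their standard error. A gene was called higher or lower where the limma adjusted p (Benjamini-Hochberg, over all 27808 tested probe sets) was under 0.05. Nothing in the labels tells whether the 4 arrays of a group are independent collections or repeats of 1 collection, so p-values reflect only the spread among these arrays, and precision is limited by their number. All 9 blastocyst markers were tested, with a summed signal of 48912 to 51133 in Ca-free medium, 49354 to 50217 after 20 pulses and 49508 to 51704 in control. Of these 9, Pou5f1 (log2 change 0.20) and Cdx2 (0.28) were called higher and Eomes (-0.70) and Gata4 (-0.69) lower in Ca-free medium than in control. The arrays differed in ways the labels do not explain: the 3' to 5' signal ratio of Actb was 1.59 and 1.67 in controls 1 and 2, but 2.69 and 2.64 in controls 3 and 4. In bulk samples, a different share of a cell type and a different amount of RNA per cell cannot be told apart.

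In Ca-free medium, 38 of the 76 genes were called higher than in control and 3 were called lower. Among all 13599 genes tested in the same way, 12.3% were called higher and 28.8% lower. The members' median log2 change was 0.20, against -0.13 over all genes tested. Changes ranged from -0.62 for Mrpl28 to 1.03 for Mrpl33, with a median standard error of 0.08, and 62 of 76 were above 0. At an unadjusted p under 0.05, 43 members were higher and 4 lower, and 51.0% of all genes passed in either direction. In 33 genes every Ca-free array lay above every control array (10.8% of all genes), and in 1 gene, Mrpl28, every Ca-free array lay below (26.3% of all genes).

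**Figure D1:**
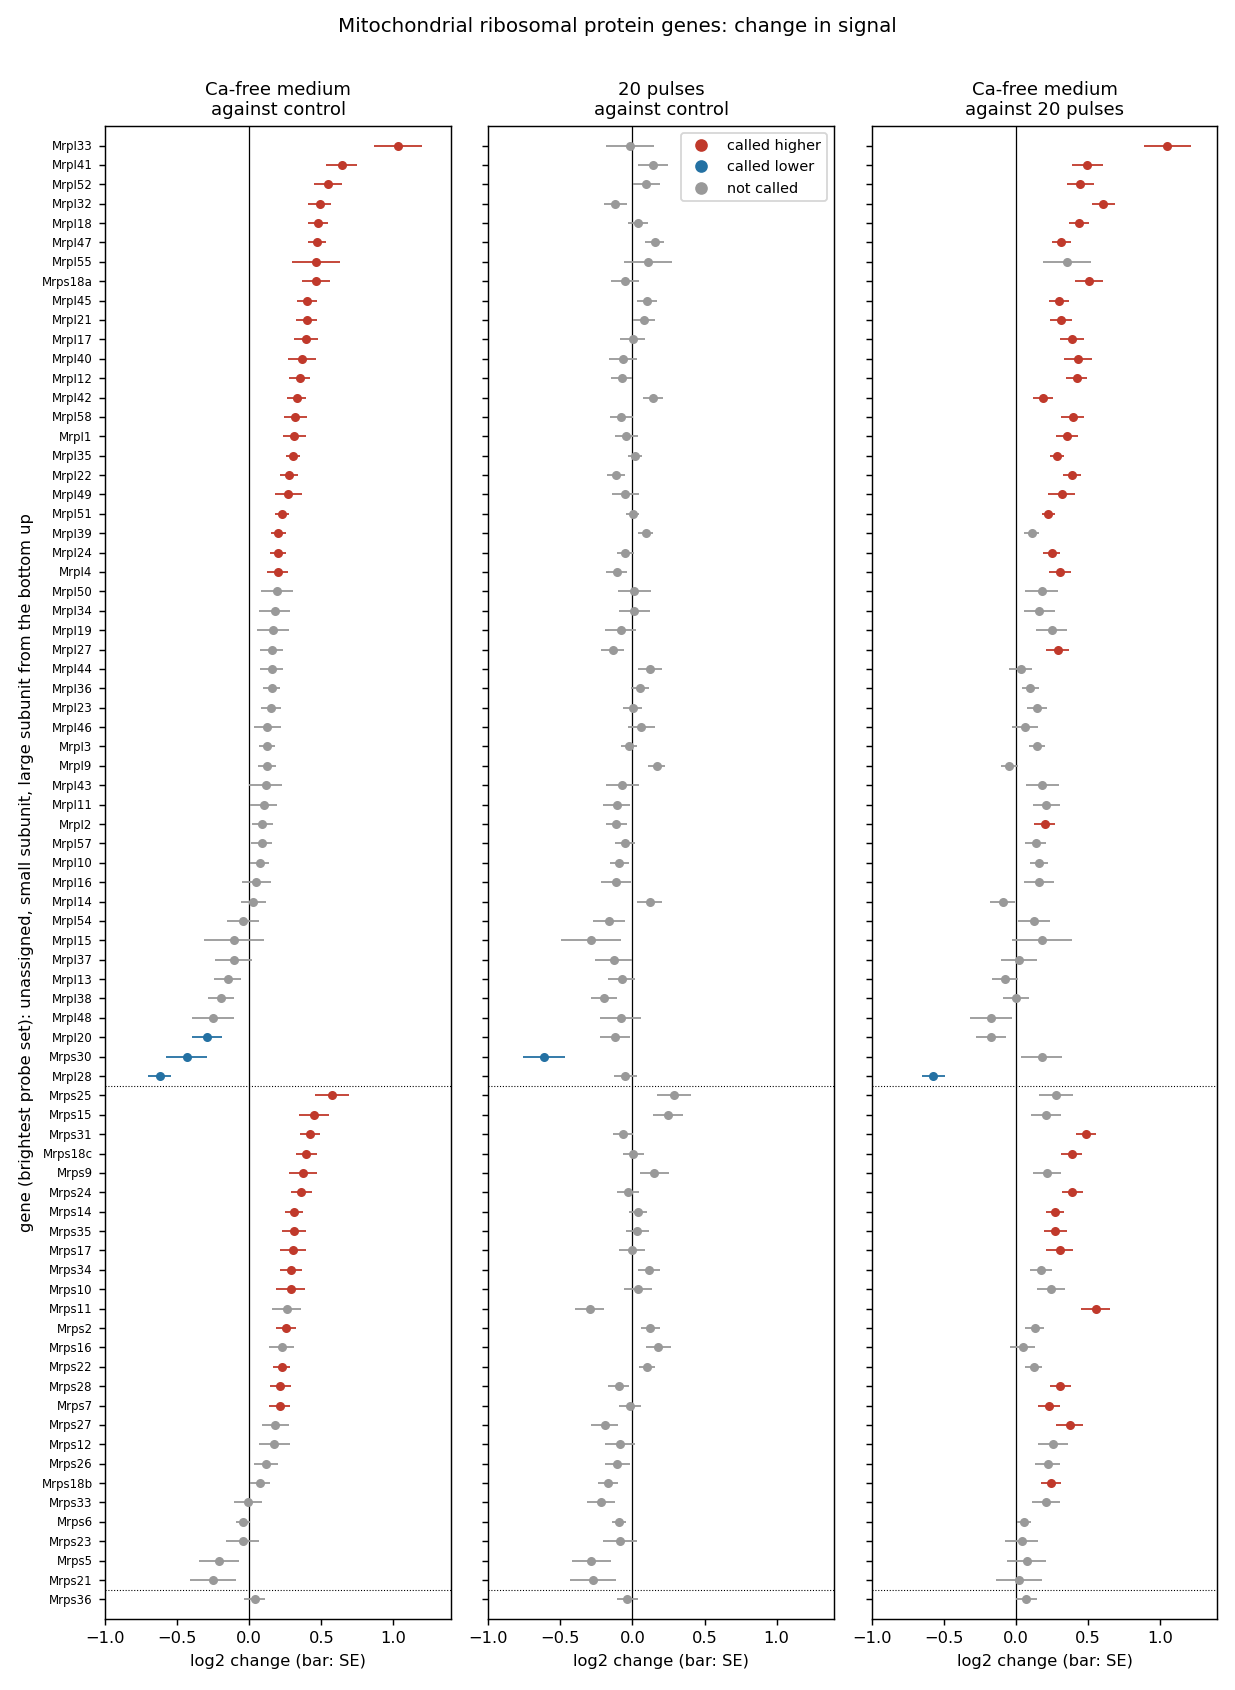
Log2 change in signal (x axis, points with standard errors) of each of the 76 genes (y axis) for Ca-free medium against control, 20 pulses against control and Ca-free medium against 20 pulses, with calls at an adjusted p under 0.05 in colour. On this trimmed mean scale most genes sit right of 0 in both Ca-free comparisons (medians 0.20 and 0.22), whereas after 20 pulses against control they scatter around a median of -0.05 and 1 gene is called.

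The direction of these changes depended on how the arrays were scaled to each other. With quantile normalization 23 members were called higher and 5 lower (median 0.10), and with each array scaled to its median 67 were higher and 1 lower (median 0.61). Of all genes, 9.02% were called higher and 11.5% lower with the first of these, and 42.2% and 5.21% with the second. The arrays were also scaled to the 9 probe sets for spiked-in hybridization controls. With that scaling 9 members were called higher and 9 lower (median -0.0045), against 2.53% and 48.6% of all genes. With an older version of those control probe sets, a choice made after the data were seen, 2 were higher and 26 lower (median -0.16), against 0.684% and 66.6% of all genes. The median of all genes moved with each scaling, to -0.03, 0.25, -0.32 and -0.47 in the same order. The members' median exceeded that of all genes by 0.33 with the trimmed mean and by 0.13, 0.36, 0.32 and 0.31 with the others. Changes below are on the trimmed mean scale unless stated.

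**Figure D2:**
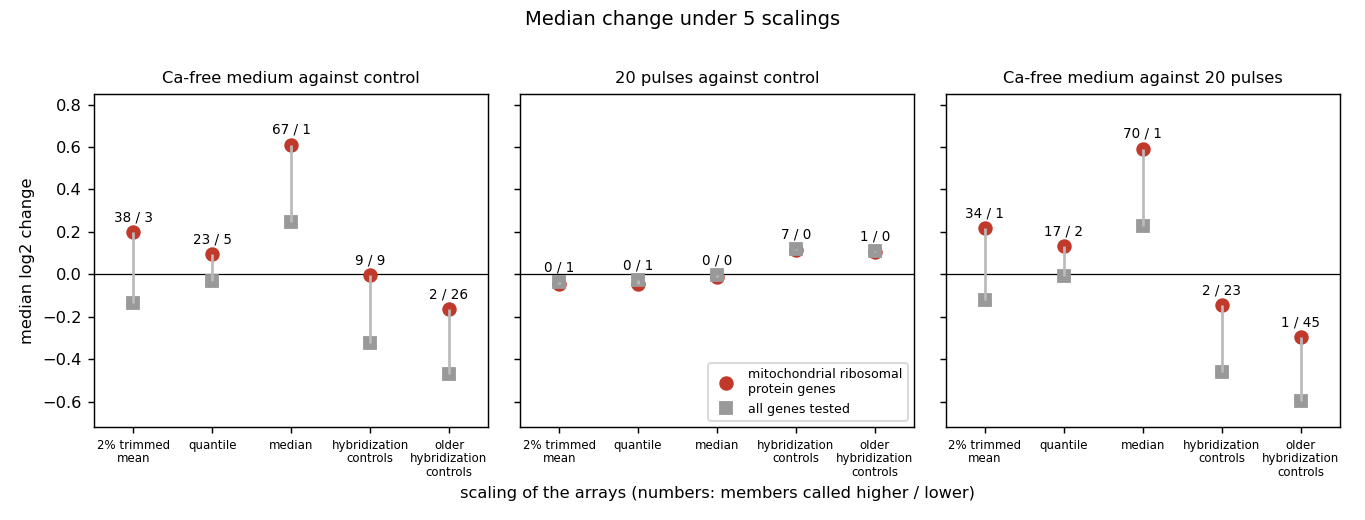
Median log2 change (y axis) of the mitochondrial ribosomal protein genes (circles) and of all genes tested (squares) under 5 scalings of the arrays (x axis), with the numbers of members called higher and lower above each pair. In both Ca-free comparisons the circle lies above the square under each scaling, by 0.13 to 0.37, while its side of 0 changes with the scaling; after 20 pulses against control both lie close together.

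Each Ca-free array showed the shift. Relative to the mean of the controls, the median log2 deviation over the 76 genes was 0.23, 0.22, 0.13 and 0.28 on Ca-free arrays 1 to 4. It was -0.09, -0.04, 0.02 and 0.02 on the arrays of 20 pulses and -0.10, -0.07, 0.09 and 0.07 on the controls. The 4 Ca-free arrays thus lay above all 8 others, with array 3 nearest to them. All genes tested had medians between -0.15 and -0.11 on the Ca-free arrays and between -0.05 and 0.01 on the rest. Controls 3 and 4 read higher than controls 1 and 2 in 68 of the 76 genes, with a median log2 difference of 0.18, against -0.01 over all genes. With controls 1 and 2 as the only controls, 48 members were called higher in Ca-free medium, and with controls 3 and 4 the number was 19, against 10.9% and 7.4% of all genes. With Ca-free arrays 1 and 4 alone 42 were called higher, and with arrays 2 and 3 alone 27, against 12.3% and 9.73% of all genes.

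**Figure D3:**
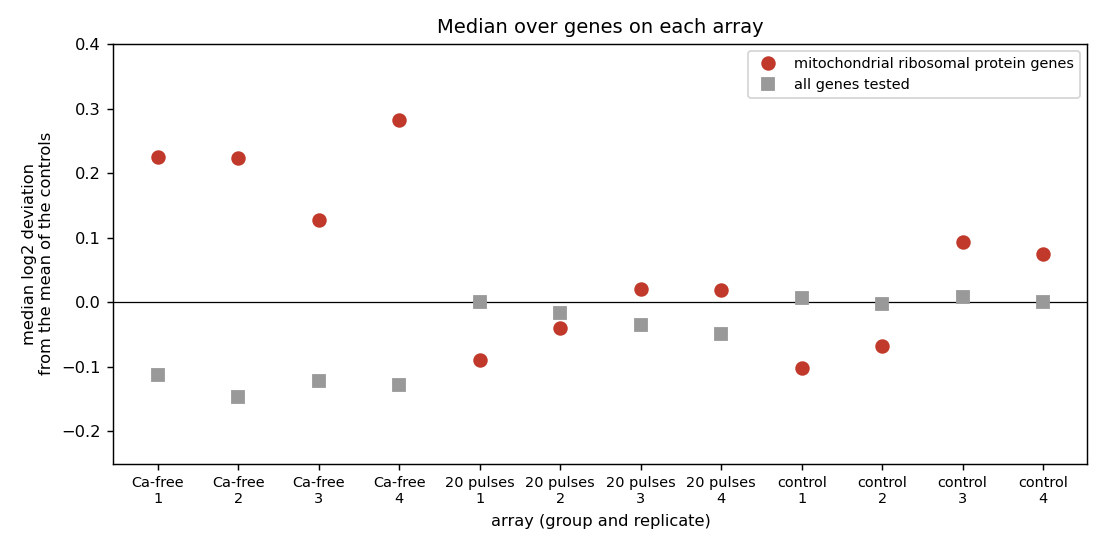
Median log2 deviation from the mean of the controls (y axis) on each of the 12 arrays (x axis), for the 76 mitochondrial ribosomal protein genes (circles) and all genes tested (squares). The circles of the 4 Ca-free arrays lie between 0.13 and 0.28, above those of the other 8, while the squares of the Ca-free arrays lie between -0.15 and -0.11.

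A set of 9 members was called higher under the trimmed mean, quantile, median and hybridization control scalings alike (2.51% of all genes). They were Mrpl18, Mrpl32, Mrpl33, Mrpl41, Mrpl45, Mrpl47, Mrpl52, Mrps25 and Mrps31. Without the hybridization controls as a criterion the number was 22 (6.74% of all genes). Mrpl28 was the single member called lower under all 4 (4.38% of all genes).

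The largest increase was in Mrpl33, a small protein of the large subunit with a bacterial counterpart. Mrpl33 read 6705, 5493, 5171 and 6318 in Ca-free medium, 2452, 2559.7, 3035 and 3331 after 20 pulses, and 1997, 2555, 3328 and 3941 in control. The Ca-free arrays did not overlap with either other group, and controls 1 and 2 were the lowest of the 4 controls. The log2 change against control was 1.03 ± 0.17 (SE, n = 4 each; limma adjusted p = 6.4e-04), a 2.05-fold higher value of signal plus 32. The gene's other tested probe set was dim and moved the other way: it read 101, 92.8, 124 and 111 in Ca-free medium, against 196, 193, 206 and 189.7 in control (log2 change -0.72, called lower). When the log values of both were averaged, Mrpl33 was not called (log2 change 0.16, adjusted p = 0.20).

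Mrpl41, a large-subunit protein found in mitochondria and not in bacteria, read 4129.7, 3748, 3183 and 4649 in Ca-free medium and 2224, 2431, 2604 and 2701 in control. The groups did not overlap, and the change was 0.64 ± 0.11 (adjusted p = 7.2e-04). Its second probe set gave 0.18 and was not called.

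Mrps25 of the small subunit read 1109, 1035, 1156 and 1296 in Ca-free medium, 893, 991, 868 and 1002 after 20 pulses, and 629, 662, 908 and 882 in control. The change against control was 0.57 ± 0.12 (adjusted p = 0.0023), and the 2 lowest values were controls 1 and 2. A dim second probe set gave -0.03 and was not called.

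Mrpl52, another large-subunit protein without a bacterial counterpart, read 3958, 4024, 3748 and 4119 in Ca-free medium and 2374, 2484, 3245 and 2784 in control. It rose by 0.55 ± 0.09 (adjusted p = 9.6e-04) on its brightest probe set, while its 2 others gave 0.15 and 0.09 and were not called. Mrpl32, a bacterial-type protein that the m-AAA protease of the inner membrane trims before it joins the large subunit, read 2680.2, 3247, 3124 and 2839 in Ca-free medium. It read 1816, 1748, 2048 and 2149 after 20 pulses and 2025, 2049, 2208 and 2130.3 in control. Mrpl32 rose by 0.49 ± 0.08 (adjusted p = 7.0e-04), and its Ca-free arrays stood clear of both other groups, whose ranges overlapped.

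Mrpl18, which binds RNA in the central protuberance of the large subunit, rose by 0.48 ± 0.07 (adjusted p = 3.8e-04), with signals of 4494 to 5132 in Ca-free medium and 3165 to 3813 in control. Mrpl47 rose by 0.47 ± 0.06 (adjusted p = 3.0e-04), with 4528 to 4987 in Ca-free medium and 3199 to 3739 in control. Both are large-subunit proteins with a bacterial counterpart, and in neither did the groups overlap. Mrpl55 had a change of similar size, 0.46 ± 0.17, but its groups overlapped: it read 1858, 1557, 1068 and 2025 in Ca-free medium and 1024, 992, 1390.3 and 1191 in control. Its call (adjusted p = 0.038) was lost when any of Ca-free arrays 1, 2 and 4 or controls 1, 2 and 4 was left out (adjusted p 0.054 to 0.12).

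**Figure D4:**
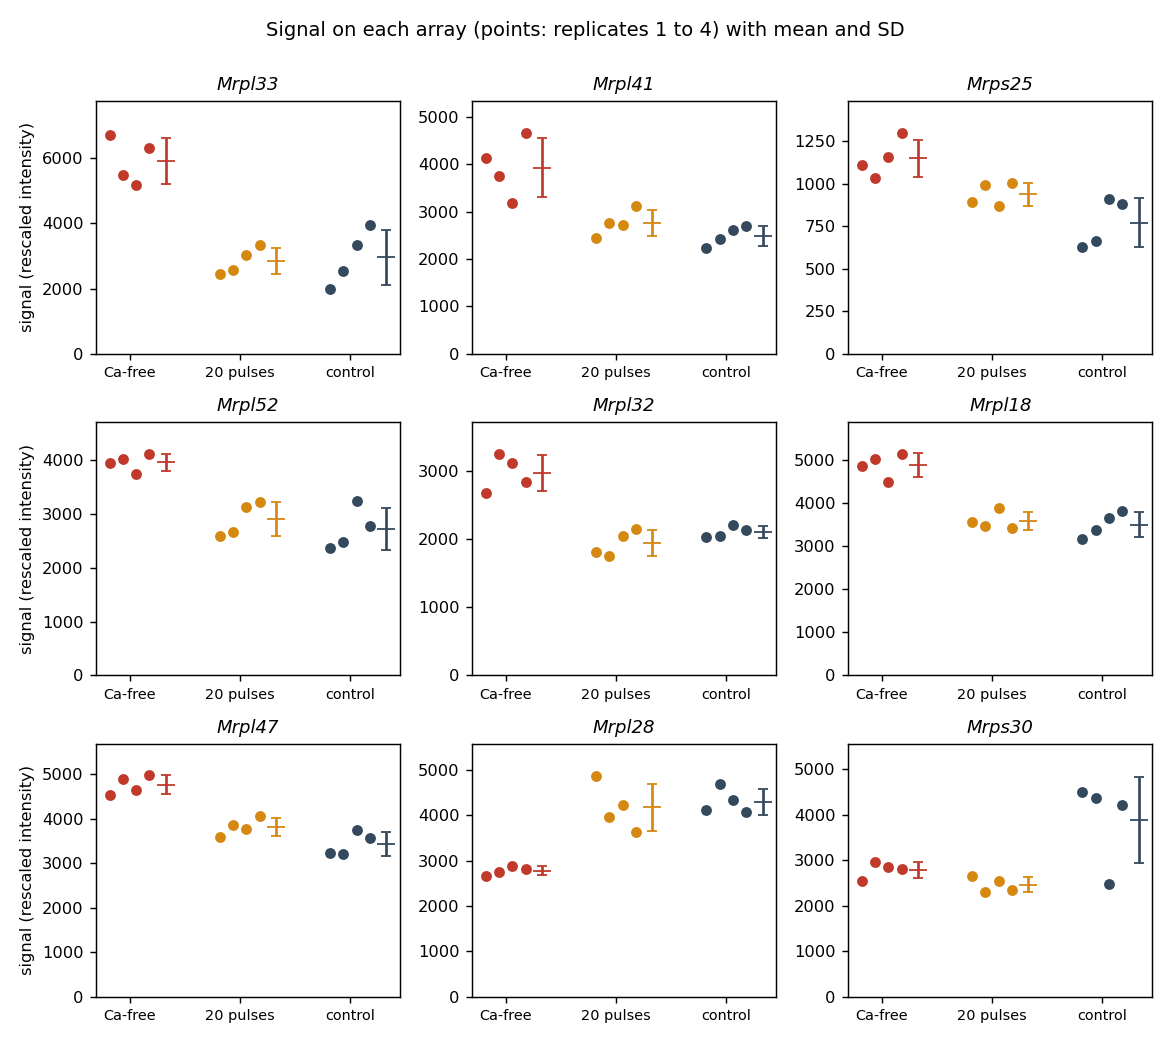
Signal (rescaled intensity, y axis from 0) of the counted probe set of 9 genes on each array, grouped as Ca-free medium, 20 pulses and control, with the mean and SD of each group. In the first 7 genes all Ca-free points lie above all control points. In Mrpl28 they lie below, between 2663 and 2887. In Mrps30 control 3 reads 2466, within the range of 20 pulses and below the Ca-free points.

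To show what lies upstream of genes that moved together, the 250 bases before the annotated start were read for the members found in RefSeq's promoter table (GRCm38.p6), which held 67 of the 76 genes. Where a gene had several starts, each was searched; 6 windows are printed. Mrpl33 and Mrpl41 had the 2 largest increases, Mrpl32, Mrpl45 and Mrpl52 were picked from the 9 members called higher under 4 scalings because their windows held matches, and Mrpl28 was called lower under the same 4. Capitals mark matches on either strand to 4 motifs: CGCANGCG, the core of the NRF1 motif, CCGGAAG of ETS factors such as GABPA, AAGATGGC of YY1 and GGGCGG of SP1. These are regulators known from other studies to act on nuclear genes for mitochondria.
Mrpl33, chr5:31613701-31613950, plus strand: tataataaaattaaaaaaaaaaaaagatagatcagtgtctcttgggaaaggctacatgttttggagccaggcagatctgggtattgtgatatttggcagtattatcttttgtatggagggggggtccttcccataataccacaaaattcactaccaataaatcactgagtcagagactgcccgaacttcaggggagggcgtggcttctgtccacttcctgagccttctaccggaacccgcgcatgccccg
Mrpl41, chr2:24975099-24975348, minus strand: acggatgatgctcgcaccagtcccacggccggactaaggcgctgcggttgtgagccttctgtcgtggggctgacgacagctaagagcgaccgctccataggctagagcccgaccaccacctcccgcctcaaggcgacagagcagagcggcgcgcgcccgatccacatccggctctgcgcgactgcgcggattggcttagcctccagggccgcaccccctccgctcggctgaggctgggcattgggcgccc
Mrpl32, chr13:14613038-14613287, minus strand: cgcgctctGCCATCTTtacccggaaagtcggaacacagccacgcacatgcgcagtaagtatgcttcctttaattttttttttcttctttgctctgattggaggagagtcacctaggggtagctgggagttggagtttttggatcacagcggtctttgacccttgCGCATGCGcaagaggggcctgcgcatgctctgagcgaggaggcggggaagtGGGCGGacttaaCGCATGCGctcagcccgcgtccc
Mrpl45, chr11:97315466-97315715, plus strand: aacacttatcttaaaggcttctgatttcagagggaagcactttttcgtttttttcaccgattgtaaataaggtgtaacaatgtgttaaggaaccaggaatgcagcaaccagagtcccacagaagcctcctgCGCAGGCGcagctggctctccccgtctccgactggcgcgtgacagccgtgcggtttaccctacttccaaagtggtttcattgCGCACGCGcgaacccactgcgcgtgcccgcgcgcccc
Mrpl52, chr14:54426659-54426908, plus strand: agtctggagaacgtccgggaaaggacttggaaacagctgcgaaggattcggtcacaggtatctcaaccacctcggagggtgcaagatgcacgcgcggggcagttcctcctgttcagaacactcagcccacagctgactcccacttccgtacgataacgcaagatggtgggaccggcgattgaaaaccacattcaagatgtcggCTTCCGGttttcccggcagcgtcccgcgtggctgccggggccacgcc
Mrpl28, chr17:26123253-26123502, plus strand: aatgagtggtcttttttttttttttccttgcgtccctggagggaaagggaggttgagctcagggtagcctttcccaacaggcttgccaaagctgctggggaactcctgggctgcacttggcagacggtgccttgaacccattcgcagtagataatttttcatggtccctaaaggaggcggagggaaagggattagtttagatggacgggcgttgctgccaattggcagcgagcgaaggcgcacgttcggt

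The windows of Mrpl33, Mrpl41 and Mrpl28 held none of the 4 motifs as spelled. Mrpl32 held 2 matches to NRF1 and 1 each to YY1 and SP1, Mrpl45 held 2 to NRF1, and Mrpl52 held 1 to the ETS motif. Of the 9 members called higher under 4 scalings, Mrpl47, Mrps25 and Mrps31 also held none, and Mrpl18 held 1 match each to the ETS and SP1 motifs. Of the 9, 22.2% each had the NRF1 core, the ETS motif and the SP1 motif, and 11.1% the YY1 motif. Over the 67 genes, 23.9% had the NRF1 core, 25.4% the ETS motif, 5.97% the YY1 motif and 49.3% the SP1 motif. Over the 10919 tested genes with a promoter in the table, the shares were 14.4%, 14.2%, 2.27% and 59.1%. Of the 34 members called higher in Ca-free medium with a promoter in the table, 23.5% had the NRF1 core, 26.5% the ETS motif, 2.94% the YY1 motif and 47.1% the SP1 motif. Of the 33 members not called higher the shares were 24.2%, 24.2%, 9.09% and 51.5%. A match describes letters in this window, not binding. None of the 4 motifs contains another.

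By position in the ribosome, the stalk of the large subunit, which recruits translation factors, was represented by Mrpl10, Mrpl11 and Mrpl12. Mrpl12 rose by 0.35 ± 0.07 (adjusted p = 0.0023), with 4412 to 5357 in Ca-free medium and 3576 to 3897 in control, which did not overlap. Mrpl10 gave 0.07 and was not called. Mrpl11 gave 0.10 on its brightest probe set, not called, and 0.25 on its second, which was called higher.

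Of the proteins around the exit tunnel, through which the new chain leaves, Mrpl22 rose by 0.27 ± 0.06 (adjusted p = 0.0045), with 8220 to 9488 in Ca-free medium and 6851 to 7868 in control. Mrpl24 was called higher by 0.20 ± 0.06 (adjusted p = 0.015) although its groups overlapped, and without control 1 the call was lost (adjusted p = 0.052). Its sign turned under the hybridization control scaling (-0.0059). Mrpl23 gave 0.15 and was not called. Mrpl45, which tethers the ribosome to the inner membrane, rose by 0.40 ± 0.07 (adjusted p = 9.1e-04): it read 1847, 1615, 1675 and 1779 in Ca-free medium, against 1284, 1359, 1314 and 1242 in control. Mrpl44, which resembles an RNase III, gave 0.16 on its brightest probe set, not called. A second probe set of Mrpl44 gave 0.14 and was called higher.

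In the small subunit, Mrps15 rose by 0.45 ± 0.10 (adjusted p = 0.0045), and its second probe set was called higher too (0.30). Mrps24 rose by 0.36 ± 0.07 (adjusted p = 0.0022), Mrps12, the protein at the decoding centre, gave 0.17, and Mrps5 gave -0.21; neither of the last 2 was called. Of the 3 paralogs related to bacterial S18, Mrps18c rose by 0.40 ± 0.07 (adjusted p = 0.0014) and Mrps18a, which sits in the large subunit despite its name, by 0.46 ± 0.10 (adjusted p = 0.0026), while Mrps18b gave 0.07 and was not called. The difference between paralogs was not tested. Mrps36, which bears a ribosomal name but is known as a component of the 2-oxoglutarate dehydrogenase complex, gave 0.04 and was not called; it read 1374 to 1516 in Ca-free medium and 1313 to 1508 in control.

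Counted by subunit, 23 of 49 large-subunit genes were called higher and 3 lower (median 0.18), and 15 of 26 small-subunit genes were called higher and 0 lower (median 0.24). By origin, 23 of 45 genes with a bacterial counterpart were higher and 2 lower (median 0.21), and 15 of 30 genes specific to mitochondria were higher and 1 lower (median 0.20). Of the paralogs related to bacterial S18, Mrps18c was counted with a bacterial counterpart, and Mrps18a and Mrps18b were counted as specific to mitochondria. Mrps36 was left out of both divisions. Of all genes, 12.3% were called higher and 28.8% lower. The differences between subunits and between origins were not tested.

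The 3 members called lower differed in how firmly they were measured. Mrpl28, a large-subunit protein with a bacterial counterpart, read 2663, 2758, 2887 and 2805 in Ca-free medium, 4867, 3965, 4219 and 3629 after 20 pulses, and 4119, 4691, 4323 and 4058 in control. All Ca-free arrays lay below both other groups, and the change against control was -0.62 ± 0.08 (adjusted p = 2.3e-04). That probe set's name carries the manufacturer's _x ending, which marks probes that may also bind other transcripts. The gene has 2 other probe sets. One read 3431, 3037, 2865 and 3545 in Ca-free medium and 3177, 3219, 3547 and 3660.2 in control (log2 change -0.08). The other read 1844, 1640.1, 1765 and 1705 in Ca-free medium and 1731, 1619.6, 1861 and 1811 in control (log2 change -0.01). In neither of these did the groups separate, and neither was called.

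Mrps30, which sits in the central protuberance of the large subunit, read 2548, 2960.1, 2848 and 2808 in Ca-free medium, 2653, 2292, 2545 and 2349.6 after 20 pulses, and 4499, 4356, 2466 and 4210.1 in control. Control 3 lay with the treated arrays and the other 3 controls lay above all of them. The change in Ca-free medium was -0.43 ± 0.14 (adjusted p = 0.027), and the call was lost without Ca-free array 1 or without control 1, 2 or 4 (adjusted p 0.066 to 0.084). Mrpl20 had overlapping groups (2119 to 2399 in Ca-free medium, 2199.8 to 3354 in control), a change of -0.29 ± 0.10 and an adjusted p of 0.037. Its call was lost without any one of Ca-free arrays 1, 2 and 3 or controls 1, 2 and 3 (adjusted p 0.058 to 0.12). Mrpl38, also of the central protuberance, gave -0.19 and was not called, while Mrpl18 of the same region was among the increases.

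The members' probe sets differed in direction with their brightness. Of the 106 with a mean signal of 500 or more, 44 were called higher in Ca-free medium and 4 lower, against 23.3% and 13.8% of all such probe sets. Of the 30 below 500, 1 was called higher (of Mrpl27) and 12 lower, against 3.17% and 38.9% of all such probe sets. Over all probe sets of any brightness, 10.6% were called higher and 29.7% lower. Probe sets of 1 gene were called in both directions in Mrpl17, Mrpl33, Mrpl35, Mrpl47, Mrpl58 and Mrps9, 6 of the 37 genes with several tested probe sets. In each of the 6 the brighter probe set was called higher and a dim one lower. Mrpl17, for example, read 6934, 6645, 5993 and 7462 in Ca-free medium and 4703, 4597, 5760.4 and 5527 in control on its brightest probe set (log2 change 0.39). On a dim one it read 104, 93.5, 85.1 and 107 in Ca-free medium and 168, 274, 222 and 139 in control (log2 change -0.82). Mrpl35 gave 0.30 on its brightest probe set and -0.93 on a dim one, which averaged 108 (SD 36.9) on the Ca-free arrays and 231.2 (SD 52.4) on the controls. The corresponding pairs of changes were 0.47 and -0.43 for Mrpl47, 0.32 and -0.58 for Mrpl58, and 0.37 and -0.41 for Mrps9, whose other 2 probe sets were not called. A further 3 genes had at least 2 probe sets called higher and none lower (Mrpl39, Mrpl49 and Mrps15). In 1 gene, Mrpl19, 2 of 4 probe sets were called lower and none higher. No share over all genes stands beside these counts of agreement.

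Brightness also set the members apart from the average gene. When all 13599 genes were divided into 3 equal classes by signal, 70 of the 76 members lay in the highest (4533 genes), where 28.5% of all genes were called higher and 9.42% lower, with a median change of 0.09. Of those 70 members, 54.3% were called higher and 4.29% lower, with a median of 0.21. The other 6 lay in the middle class, and none of them was called in Ca-free medium against control. In that class 6.33% of all genes were called higher and 35.3% lower. Since probes differ in how well they bind, signals do not rank the genes' RNA levels. The highest control signal was that of Mrpl51, which averaged 11254 ± 481 in Ca-free medium, 9614 ± 228 after 20 pulses and 9606 ± 421 in control (± SD, n = 4 each) and was called higher in Ca-free medium (0.23). Mrpl39 (0.20) and Mrpl22 followed it among the called genes, and Mrps18b and Mrpl11 among those not called. At the low end were Mrps11, Mrps27 (0.18, not called), Mrps25, Mrpl54 (-0.04, not called) and Mrpl37 (-0.11, not called). Mrps27 averaged 680.03 ± 59.3 in Ca-free medium, 517 ± 46.1 after 20 pulses and 595 ± 32.4 in control. How far the link between signal and change contributes to the members' counts was not tested.

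**Figure D5:**
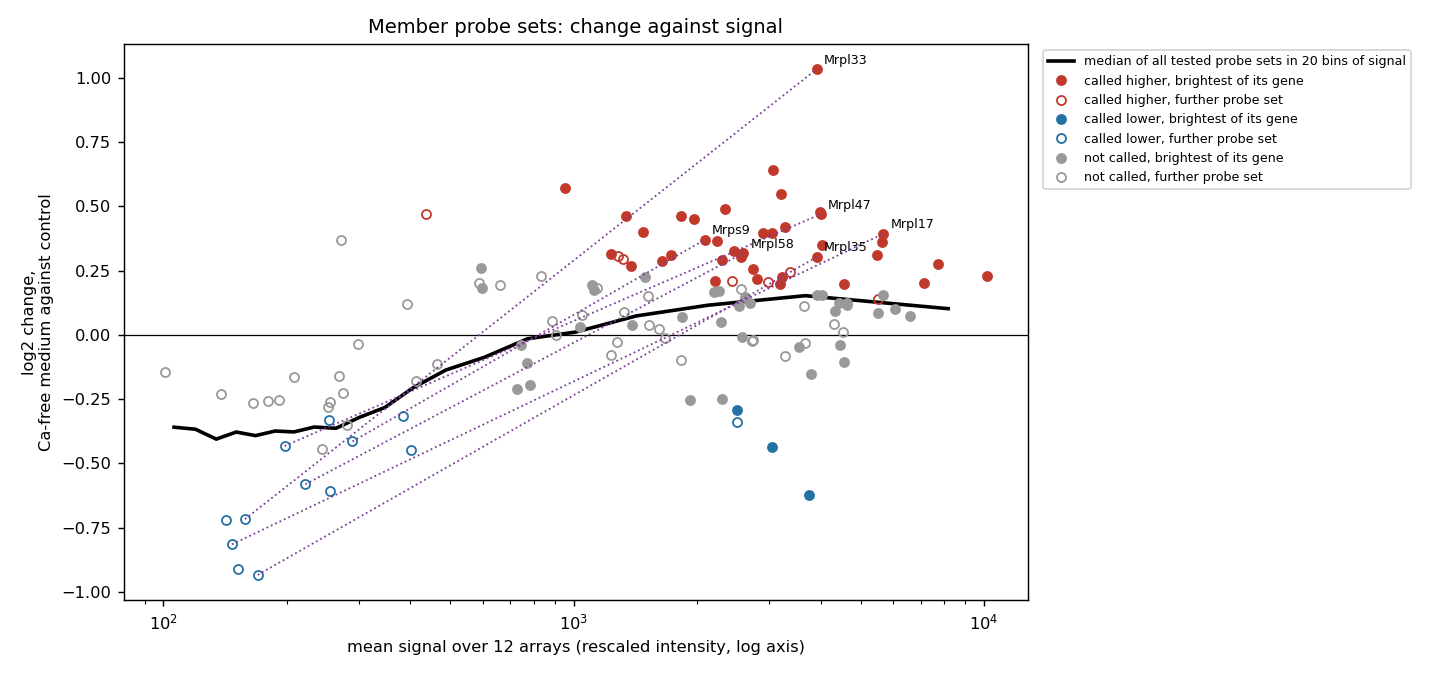
Log2 change in Ca-free medium against control (y axis) of each tested member probe set against its mean signal (x axis, log scale), filled where it stands for its gene, with dotted lines joining probe sets of 1 gene called in opposite directions and the median of all tested probe sets as a black line. Both the black line and the members go from below 0 at low signal to above 0 at high signal, and the bright Mrpl33 probe set lies at 1.03 while its dim one lies at -0.72.

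Among the array controls, some differed between Ca-free medium and control and the Actb ratio did not pass its test. The 3' to 5' ratio of Gapdh was 2.89 to 5.05 in Ca-free medium and 5.76 to 8.90 in control (p = 0.0286 in a two-sided exact permutation test, the lowest possible with 4 arrays against 4). The 3' probe set of 18S rRNA read 2592 to 3540.4 in Ca-free medium and 1236 to 1721 in control (p = 0.0286 in the same exact test). The hybridization controls, on the log2 scale, averaged 10.81 to 10.85 in Ca-free medium and 10.60 to 10.67 in control (difference 0.21, exact permutation p = 0.0286). The 3' to 5' ratio of Actb was 1.69 to 1.88 in Ca-free medium and 1.59 to 2.69 in control (exact permutation p = 0.43). The 5' probe set of 18S rRNA was also higher after 20 pulses, at 2653 to 3688 against 878 to 2559 in control (log2 difference 1.08, exact permutation p = 0.0286). The summed signal of the 5 oviduct and uterine epithelium markers was 474 to 654 in Ca-free medium, 717 to 1008 after 20 pulses and 956 to 1113 in control, and the 3 of them that were tested were all called lower in Ca-free medium than in control. That of the 6 egg markers was 1464 to 2125 in Ca-free medium, 1415 to 1849.7 after 20 pulses and 1756 to 2155 in control, with 2 of the 6 called lower in Ca-free medium than in control. In that comparison 28.8% of all genes were called lower, and 41.7% of those in the lowest of the 3 signal classes. None of the 5 measured cumulus cell markers was bright enough to be tested, and their sum was 133 to 174 in Ca-free medium, 230.2 to 387 after 20 pulses and 153 to 418 in control. Of the 3 leukocyte markers 1 was tested (summed signal 296 to 371 in Ca-free medium, 433 to 519.7 after 20 pulses and 438 to 475 in control), and of the 2 erythroid markers 1 (121 to 179, 219 to 251 and 148 to 254 in the same order). Their part in the members' changes was not tested.

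After 20 pulses, no increase was called among the 76 genes and 1 gene, Mrps30, was called lower than control. Over all genes 0.75% were called higher and 0.331% lower. The members' median log2 change was -0.05, against -0.04 over all genes, and at an unadjusted p under 0.05 in limma 4 members were higher and 5 lower, while 15.3% of all genes passed in either direction. Under the hybridization control scaling 7 members were called higher and 0 lower (median 0.11), beside 7.0% and 0.125% of all genes (median 0.12). With controls 1 and 2 alone 2 were higher and 1 lower (median 0.06), beside 0.5% and 0.14% of all genes.

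Mrps30 fell by 0.62 on the log2 scale, with a standard error of 0.14 (adjusted p = 0.0486), after 20 pulses relative to control. Its range of 2292 to 2653 after 20 pulses included the value of control 3, 2466, and lay below the other 3 controls. The call was lost when any 1 array other than control 3 was left out (adjusted p 0.068 to 0.13), and without control 3 it was kept. Mrps11 of the small subunit was the 1 gene with every array of 20 pulses below every control (5.6% of all genes): it read 459, 451, 481 and 505 after 20 pulses, against 566, 539.7, 637 and 619.7 in control. Its change of -0.30 ± 0.10 was not called (adjusted p = 0.15). Mrps25, Mrps15 and Mrpl47 had the values 0.29, 0.24 and 0.15 after 20 pulses relative to control, none of them called.

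Set against 20 pulses, Ca-free medium gave 34 members called higher and 1 lower, Mrpl28, with a median log2 change of 0.22 against -0.12 over all genes. Over all genes 11.2% were called higher and 21% lower. This comparison shares its Ca-free arrays with the one against control. In it, quantile normalization gave 17 higher and 2 lower, median scaling 70 and 1, and the hybridization control scaling 2 and 23 (median -0.15). The shares of all genes called higher and lower were 5.32% and 5.13%, 37.8% and 2.43%, and 0.279% and 70.4% in the same order, the last with a median of -0.46. Called higher under these 4 scalings were Mrpl32 and Mrpl33 (0.272% of all genes).

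Mrpl33 was 1.05 ± 0.17 higher in Ca-free medium than after 20 pulses (adjusted p = 0.0011), and Mrpl32 was 0.61 ± 0.08 higher (adjusted p = 6.2e-04). They were followed by Mrps11 (0.56 ± 0.10), Mrps18a (0.51 ± 0.10) and Mrpl41 (0.50 ± 0.11). Mrps11 read 634, 729, 652 and 848 in Ca-free medium, above each of its values after 20 pulses, and was not called against control (0.26, adjusted p = 0.0503). Mrpl28 was lower (-0.57 ± 0.08, adjusted p = 7.0e-04) on its _x probe set, and its other 2 gave 0.01 and 0.21, not called. The next values below 0 were -0.17 for Mrpl48, -0.17 for Mrpl20, -0.09 for Mrpl14 and -0.07 for Mrpl13, none of them called. The members called higher in both Ca-free comparisons numbered 29, and those called higher against control alone 9. Those called higher against 20 pulses alone numbered 5 (Mrpl2, Mrpl27, Mrps11, Mrps18b and Mrps27). Both comparisons use the same Ca-free arrays, and no share over all genes stands beside these counts. In 7 genes probe sets were called in opposite directions.

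Other genes of mitochondrial protein synthesis were counted in the same fit, from lists chosen with earlier results of these data known. Their counts stand beside the 12.3% of all genes called higher and 28.8% called lower in Ca-free medium against control. Of 4 tested ribosomal proteins without an Mrp symbol, 2 were called higher in Ca-free medium than in control and 0 lower (median 0.26). They were Chchd1 (2946 ± 186 in Ca-free medium, 2323 ± 178 in control, SD, n = 4 each; log2 change 0.34) and Dap3, a GTP-binding protein of the small subunit (0.34). Of 12 translation factors, 3 were higher and 2 lower (median -0.0002). Mtres1, which rescues stalled mitochondrial ribosomes, rose by 0.38, Tufm, the elongation factor that delivers tRNAs, rose by 0.29, and Tsfm, which recharges it, fell by 0.47. Of 28 assembly and rRNA modification factors, 4 (14.3%) were higher and 2 lower (median 0.003), among them Fastkd2 (0.40) and Gtpbp10 (0.35), both higher.

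Of 16 mitochondrial aminoacyl-tRNA synthetases, 3 were higher and 1 lower (median 0.06); Lars2 rose by 0.46 and Sars2 fell by 0.67. Of 19 genes of mitochondrial transcription, RNA processing and DNA maintenance, 3 (15.8%) were higher and 0 lower (median -0.01), among them Slirp, a partner of Lrpprc in mRNA stability (0.36), and Tefm, the transcription elongation factor (0.36). Of 10 transcription factors and coactivators of nuclear genes for mitochondria, 0 were higher and 1, Ppargc1a, was lower (-0.48), while Sp1 gave 0.44 and was not called. Yy1 gave 0.08 and was not called. After 20 pulses none of these lists had a member called against control.

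Genes for proteins of the cytosolic ribosome were called in different numbers in the Ca-free comparisons. Against control, 11 of 41 were called higher and 1 lower (median 0.09), beside 12.3% and 28.8% of all genes. Rps2 gave 0.50 and Rpl35 gave 0.22. Against 20 pulses, 35 of 41 were higher and 1, Rpl39, lower, beside 11.2% and 21% of all genes. The median there was 0.22, as for the mitochondrial genes. Their median after 20 pulses relative to control was -0.13, with 0 called in either direction. The difference between the cytosolic and the mitochondrial genes was not tested.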

How the data were processed

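The authors deposited linear intensity values for 45037 probe sets and 64 array controls, made with MAS5 (no version named), per the submitters' processing notes. RNA was labelled for 12 arrays (3 groups of 4, grouped by title). Every array had the same 2% trimmed mean as deposited. Here it was rescaled to 500, 32 was added and log2 taken. Probe sets with a mean of at least 100 over the 12 arrays were fitted with limma 3.58.1 in R 4.3.3 (lmFit, eBayes with intensity trend, all groups in 1 model), and adjusted p-values run over all of them. A gene is counted by its brightest tested probe set. The fit was tested on simulated data.

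Probe names come from the platform's annotation, whose probe sets paired with several genes (932) were left out, among them those of Mrpl30 and Mrpl53, and all 76 symbols matched RefSeq (GRCm38.p6) by gene identifier. Members and lists were chosen with earlier results of these data known. Named with values are the 8 largest increases and all decreases called in Ca-free medium against control, genes called after 20 pulses, the 5 largest each way against 20 pulses, the 5 highest and 5 lowest in control signal, genes with probe sets called in opposite directions, genes listed by role, and the 2 smallest p of each other list. Of the NRF1 motif an 8-letter core was searched after a longer form had been tried. Mrps31 and the genes of short enumerations were named after their values were seen.

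Alternatives were other scalings (quantile, median, hybridization controls), added values, filters, no trend, array weights, 8 arrays only, a replicate block, a threshold of 0.01, other choices of probe set, each array left out, and pairs of arrays. No detection calls or scan dates were used.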

Additional observations from a re-analysis of the deposited data

Results flagged for a closer look

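Among the 41 genes named by rule, each of the 3 groups of 4 arrays was searched for an array far from the other 3. Of 123 groups, 6 had such an array, and chance alone gives about 1 in 20. Mrps30 read 2466.5 on control 3, against 4210.1 to 4499.0 on the other controls. Control 3 also stood apart in Mrpl35, at 3770.2 against 3547.1 to 3577.5, and in Mrps27, at 546.1 against 609.4 to 611.9. On Ca-free array 4 Mrps12 read 2714.6, against 2384.1 to 2438.3 on the other Ca-free arrays. On Ca-free array 3 Mrps18c read 3267.2, against 3491.0 to 3532.2. After 20 pulses Mrpl24 read 4010.6 on array 2, against 4313.1 to 4353.3.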

How the results depend on the processing

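For Ca-free medium against control, the 38 members called higher became 23 with quantile normalization, 67 with median scaling, 9 and 2 with hybridization controls and their older version, and 19 with controls 3 and 4 only. The 3 called lower became 5, 1, 9 and 26 under the same 4 scalings, 1 without the intensity trend, with 8 arrays only, at a threshold of 0.01 or from Ca-free arrays 2 and 3 alone, and 8 with probe sets of a gene averaged. Of all genes, 28.8% were called lower without the trend, 27.3% with 8 arrays, 15.4% at the threshold of 0.01 and 21.3% from Ca-free arrays 2 and 3. With probe sets averaged, 31.4% of all genes were called lower. The members' median of 0.2012 became 0.0959, 0.6117, -0.0045 and -0.1639 under the 4 scalings and 0.2848 with controls 1 and 2 only. For 20 pulses against control, 0 called higher became 7 and 1 with the hybridization controls and their older version. These counts stand beside 7.0% and 3.43% of all genes. With controls 1 and 2 only the number higher was 2. The 1 called lower became 0 with median scaling, both hybridization scalings, an added value of 1, no filter, no intensity trend, 8 arrays, a threshold of 0.01 and the mean of probe sets. Under these settings 0.0221% to 0.331% of all genes were called lower. The members' median of -0.0461 became 0.1141 and 0.1056 with the hybridization controls and their older version and, with controls 1 and 2 only, 0.0588. For Ca-free medium against 20 pulses, 34 higher became 17, 70, 2 and 1 under the 4 scalings, the last beside 0.118% of all genes. The 1 lower became 2 with quantile normalization. With the hybridization scalings the number lower became 23 and 45, beside 70.4% and 84.5% of all genes. It became 0 with the mean of probe sets, 5 with probe sets of unique name preferred and 2 with Ca-free arrays 1 and 4 only. Beside these stand 23.1%, 21.4% and 18.4% of all genes in the same order. The median of 0.2197 became 0.1326, 0.593, -0.146 and -0.2967 under the 4 scalings, 0.1622 with the mean of probe sets and 0.2846 with Ca-free arrays 1 and 4 only. The causes of these differences between settings were not tested. The older control scaling was chosen after the data were seen.

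For Ca-free medium against control with 1 array left out, members called higher numbered 30 to 40 and lower 1 to 3. The number lower was 1 without Ca-free array 1 or control 2. The median was 0.182 to 0.2346. Of all genes, 9.74% to 12% were called higher and 23.3% to 26.6% lower in these fits. After 20 pulses relative to control, 0 members were called higher and 0 to 1 lower, with a median of -0.0757 to -0.0071. Beside these stand 0.228% to 0.706% of all genes higher and 0.0662% to 0.272% lower. For Ca-free medium against 20 pulses, 28 to 37 members were higher and 1 lower (median 0.1905 to 0.2624). The shares of all genes there were 8.08% to 10.8% higher and 13.2% to 20.8% lower.

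Whether replicate numbers pair the arrays was left unsettled. Residuals of 12 same-number pairs had a mean correlation of 0.0156 (lowest -0.058, 1 pair over 0.1), against -0.0052 for the other pairs. These means are small, but 7 of the 12 arrays correlated best with one of their own number. With a replicate block 38 members were called higher and 3 lower in Ca-free medium than in control. It gave 0 higher and 0 lower after 20 pulses relative to control. For Ca-free medium against 20 pulses it gave 36 higher and 1 lower. The shares of all genes higher and lower were 12% and 28.3%, 0.478% and 0.176%, and 10.8% and 20.2% in the same order.

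Among single genes in Ca-free medium against control, median scaling turned Mrpl13 to 0.2589, Mrpl20 to 0.1149 and Mrpl54 to 0.356, and the hybridization controls turned Mrpl24 to -0.0059 and Mrpl39 to -0.0031. The mean of probe sets turned Mrpl17 to -0.2884, Mrpl19 to -0.252, Mrpl35 to -0.2962, Mrpl51 to -0.0158 and Mrpl58 to -0.1316. Preferring probe sets of unique name turned Mrpl17 to -0.4435, Mrpl35 to -0.2582, Mrpl51 to -0.2595 and Mrpl58 to -0.5812, and against 20 pulses Mrpl28 to 0.2052. Of the remaining alternative values of named genes, 1933 kept sign and call, 94 lost and 41 gained a call, and 111, of genes not called before or after, turned sign. Signals near background limit the dim probe sets.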
